A study of Mus musculus with 8 samples.

Results

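The results below concern the genotype by culture interaction in mouse natural killer (NK) cells: for each gene, how far the difference between CIS-null and wild-type cells after culture departed from the same difference in cells taken directly from the animal. The interaction was computed from read counts as (CIS-null in vitro minus wild type in vitro) minus (CIS-null ex vivo minus wild type ex vivo), on the log2 scale. A positive value means that CIS-null cells stood higher against wild-type cells in vitro than ex vivo, a negative value that they stood lower, and a value of 1 is a 2-fold shift. Members were the autosomal genes, 23975 of the 27179 genes in the count matrix. Of these, 12400 had enough counts to be tested, among 13184 tested genes of every chromosome.

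The series sequenced total RNA of NK cells from C57BL/6 mice in 8 libraries, 2 in each of 4 groups. The groups were wild-type cells ex vivo, CIS-/- cells ex vivo, wild-type cells in vitro and CIS-/- cells in vitro, and CIS-/- cells are called CIS-null here. All 4 groups share the same source, spleen, bone marrow and blood, from which NK cells were purified with microbeads against CD49b (the DX5 antigen). Age and sex of the mice, the allele behind the CIS-/- genotype, and the medium, cytokines and duration of the culture are not given in the sources used here. Nor do the labels say that replicates came from different mice or cultures, so p-values reflect only how far these libraries differ from each other, and that spread may be technical.

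NK cells belong to the innate lymphocytes. They kill infected or transformed cells and secrete cytokines such as interferon gamma. Cytokines that signal through the common gamma chain, such as IL-2 and IL-15, activate JAK kinases and STAT5, and STAT5 switches on Cish. CIS, the protein that Cish encodes, is an intracellular inhibitor of the SOCS family which acts back on the same receptors. An interaction with culture therefore asks in which genes loss of this feedback inhibitor goes with a different change in cultured cells than in resting cells.

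Library totals ran from 21485710 to 28065268 counts. Transcripts of the X and Y chromosomes differed between groups. Xist, the RNA of the inactive X chromosome, stood at 120 and 162 CPM (counts scaled to the size of each library) in wild-type cells ex vivo and at 131 and 89.7 CPM in CIS-null libraries in vitro, against 0.322 CPM or less in the other 4 libraries. The 4 tested Y-linked genes (Eif2s3y, Kdm5d, Ddx3y and Uty) stood at 7.06 to 44.1 CPM in wild-type libraries ex vivo, 26.5 to 111 CPM in CIS-null libraries ex vivo and 39.2 to 135 CPM in wild-type libraries in vitro, and at 0.0400 CPM or less in CIS-null cells in vitro. Wild-type libraries ex vivo thus held both Xist and Y-linked transcripts, CIS-null libraries in vitro Xist without them, and the other 4 Y-linked transcripts with little or no Xist. The interaction passed (edgeR adjusted p under 0.05) for 4 of 4 tested Y-linked genes (100%), 3 of 429 X-linked genes (0.699%) and 18 of all 13184 genes (0.137%). Sex-linked expression and the interaction thus cannot be told apart in these libraries, and no fit with sex as a term could be made. The NK marker list (16 genes) summed to between 24284 and 41223 CPM in each library. Gzma was its largest member, with 527344 and 646143 counts in CIS-null libraries in vitro, so the sum mostly follows Gzma. Ncr1 had 40152 and 45636 counts in wild-type libraries ex vivo, 19979 and 17144 in vitro, and 12349 and 13529 in CIS-null libraries in vitro. Klrb1c and Eomes were also lower in vitro, and lowest in CIS-null cells. Other members went the other way between genotypes in vitro. Nkg7 had 51973 and 52604 counts in CIS-null against 44185 and 34467 in wild-type libraries, and Prf1 33476 and 29493 against 24670 and 21335. No member of the list passed in edgeR, and DESeq2 called Gzma, Nkg7 and Prf1 as higher and Itga2 as lower. Of the 16 interactions 7 were positive and 9 negative (median -0.18).

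Promoter windows of RefSeq in GRCm38.p6 (250 bases before to 50 after each start) were available for 9 of 12 genes, the 11 autosomal genes that passed the test and Cish. Srm, Zhx2 and Tcf4 had no window and were not searched for either motif. Both strands were searched for TTCNNNGAA, the motif of STAT5 dimers, which is its own reverse complement, and for CACGTG, the E-box that Myc binds. TTCNNNGAA was found in 8.3% and CACGTG in 7.15% of all 32851 windows. The 3 genes with a TTCNNNGAA match were Cish with 2, Il18r1 with 2 in 1 of its 3 windows and Klrb1f with 1, and no window of the 9 genes held CACGTG. A match is a description of these letters and not a measured site. The matches are shown because Cish is a STAT5 target and the gene named in the genotype, and the other genes were among the lower interactions, with the motif in capitals, on the plus strand for all 3 genes. The first pair of lines below, at chr9:107296656-107296685 and chr1:40465784-40465813, belongs to Cish and Il18r1, and the following pair, at chr1:40465851-40465880 and chr6:129045893-129045922, to Il18r1 and Klrb1f. The last line is the 250 bases before the start of Sdc4, the autosomal gene with the lowest adjusted p, at chr2:164443189-164443438 on the minus strand. It is printed in lower case since it held neither motif.
Cish: gttTTCCTGGAAagTTCTTGGAAatctgtc
Il18r1, first match: tagTTCTGGGAActgtggagctcttaggtg
Il18r1, second match: gtcTTCCCAGAActgaaagcttgagcgctc
Klrb1f: tgcTTCTCAGAActtagaatttgtcactgt
Sdc4: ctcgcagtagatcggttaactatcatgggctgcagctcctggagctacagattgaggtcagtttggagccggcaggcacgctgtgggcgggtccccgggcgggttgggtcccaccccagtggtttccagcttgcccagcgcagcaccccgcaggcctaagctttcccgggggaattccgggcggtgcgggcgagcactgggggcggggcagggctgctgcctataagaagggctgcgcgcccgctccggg

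The difference between CIS-null and wild-type libraries departed between the states at 11 autosomal genes, 0.0887% of those tested (edgeR quasi-likelihood F test, Benjamini-Hochberg adjusted p under 0.05 over all 13184 genes). Sex-linked transcripts followed the same contrast, so genotype and sex-linked differences cannot be told apart for these genes. With X- and Y-linked genes left out before adjustment only Sdc4 passed. The interaction was higher for 4 genes (0.0323%): Cd3g, Srm, Lrrfip2 and Slc19a1. It was lower for 7 genes (0.0565%): Sdc4, Dscam, Arl4d, Il18r1, Zhx2, Tcf4 and Klrb1f. In each of the 11 the in vitro genotype difference was the larger of the 2 components, with a median of 1.08 on the log2 scale for the 4 higher genes and -1.20 for the 7 lower ones. The ex vivo medians were -0.34 and 0.10. In 2 of the genes the components were close in size and opposite in sign. Sdc4 had 1.23 (SE 0.136) ex vivo and -1.45 (SE 0.136) in vitro, and Lrrfip2 had -0.52 (SE 0.098) and 0.59 (SE 0.100). The 11 genes were selected on the contrast of these same 2 components. The share of all genes with the larger difference in vitro was not computed. Levels are sums over bulk cell populations, in which fewer cells of a type and less RNA per cell cannot be told apart.

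The 11 genes are the extreme of a broad spread. Over all tested autosomal genes the median interaction was -0.04 (quartiles -0.35 and 0.23) with a median SE of 0.207, and 2492 genes had an unadjusted p under 0.05, 911 of them higher (7.35%) and 1581 lower (12.8%). The interaction had the same sign in all 16 combinations of 1 library per group for 4727 genes (38.1%), and for all 11 that passed. DESeq2 called 573 genes (4.62%), 215 higher (1.73%) and 358 lower (2.89%), and limma-voom called 10 (0.0806%), 3 higher (0.0242%) and 7 lower. These shares are of all tested autosomal genes, though DESeq2 gave no adjusted p for 2719 of them. The number of calls thus differed widely between tools. Of all tested autosomal genes 45.5% had a positive interaction. The counts given for each gene list below are to be read beside these shares of all genes. The 68 genes chosen by the naming rule kept the sign of their interaction in each alternative that gave them a value, 20 for Gzmb, Bmpr1a and Klf4 and 21 for the others. The rule chose genes by agreement of sign or by low p in these same libraries. The kept sign was thus largely set by that choice and is no separate support. With library totals in place of TMM factors the median of all genes moved to -0.16, and 1 gene was called higher and 10 lower, against 4 and 7.

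**Figure D1:**
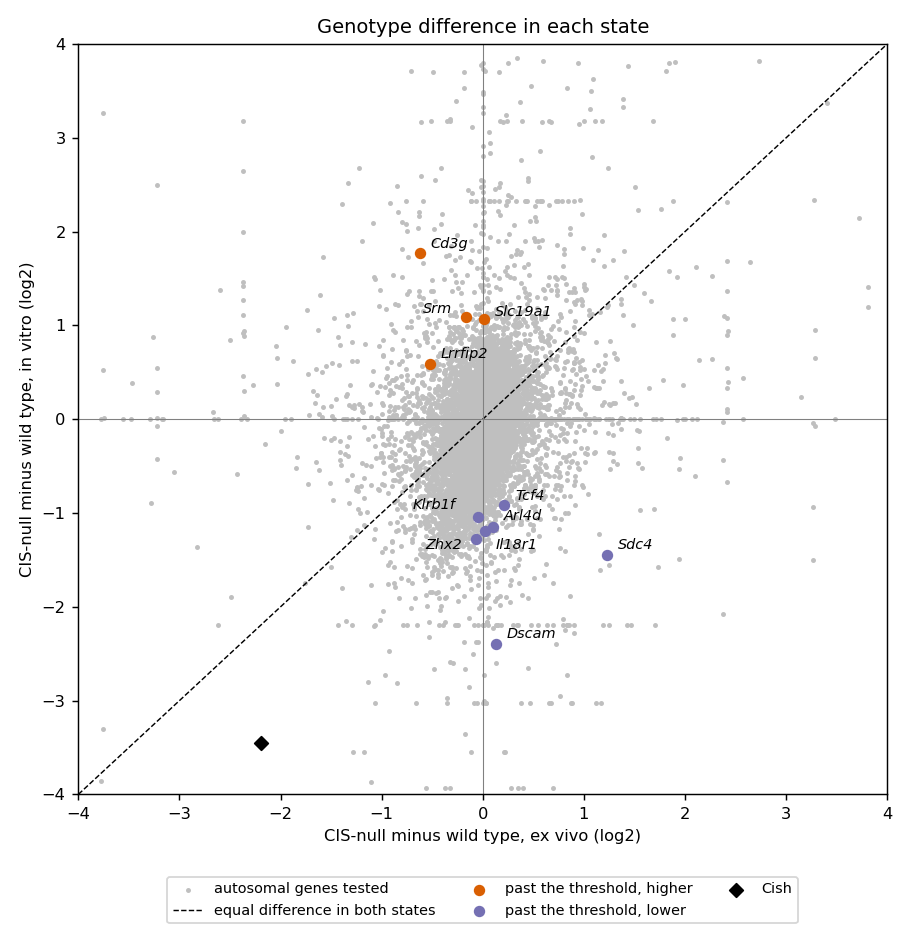
Each point is 1 of the tested autosomal genes, with the CIS-null minus wild-type difference ex vivo on the horizontal axis and in vitro on the vertical axis, both log2. The interaction is the vertical distance from the dashed diagonal; Sdc4 lies at 1.23 ex vivo and -1.45 in vitro, Cish below the diagonal with both differences negative, and the stripes of points far from 0 are genes with few counts in a group (38 genes lie outside the axes).

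Sdc4, syndecan-4, a surface proteoglycan that carries heparan sulphate, had the lowest adjusted p of the autosomal genes. Its level was 25.7 and 29.96 CPM in wild-type libraries ex vivo, 67.5 and 62.7 CPM in CIS-null libraries ex vivo, 84.6 and 83.7 CPM in wild-type libraries in vitro, and 34.9 and 26.9 CPM in CIS-null libraries in vitro. CIS-null libraries were thus above wild-type libraries ex vivo and below them in vitro. The culture difference also turned, from 1.60 in wild-type cells to -1.07 in CIS-null cells. The genotype differences were 1.23 ex vivo (SE 0.136) and -1.45 in vitro (SE 0.136), and the interaction was -2.67 (SE 0.192, n = 2 per group, edgeR adjusted p = 0.000915). Sdc4 lies at chr2:164424247-164443188 in GRCm38. It was the only gene of the 11 to pass in all 21 alternatives, with adjusted p between 6.17e-29 (DESeq2) and 0.0157 (without wild-type ex vivo replicate 1).

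Il18r1, the binding chain of the IL-18 receptor, through which IL-18 raises interferon gamma output in NK cells, was alike in both genotypes ex vivo and not in vitro. Its level was 459 and 436 CPM in wild-type and 460.0 and 449.7 CPM in CIS-null libraries ex vivo. In vitro it was 178 and 149 CPM in wild-type and 71.8 and 71.2 CPM in CIS-null libraries. The interaction was -1.22 (SE 0.147, edgeR adjusted p = 0.0296), from a difference of 0.02 ex vivo and -1.20 in vitro. The gene lies at chr1:40465552-40500854, and its promoter windows include the 2 matches printed above.

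Klrb1f, a lectin-like receptor of the NKR-P1 family, stood at 237 and 235 CPM in wild-type and 241 and 215 CPM in CIS-null libraries ex vivo. In vitro it stood at 222 and 227 CPM in wild-type and 109 and 109.8 CPM in CIS-null libraries. Wild-type cells thus kept about the same level in both states and the CIS-null cells in vitro were the group apart. The interaction was -0.99 (SE 0.126, edgeR adjusted p = 0.0345) at chr6:129045837-129059724. Members of this family resemble each other in sequence, and the handling of reads shared by such copies is not given in the sources used here, so the value is uncertain.

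Dscam, a cell adhesion molecule known best from neurons, was near its lowest levels ex vivo, with 1.35 and 1.97 CPM in wild-type and 1.66 and 1.97 CPM in CIS-null libraries. In vitro it reached 21.1 and 18.9 CPM in wild-type libraries and 3.82 and 3.76 CPM in CIS-null libraries. The culture difference was 3.58 (SE 0.206) in wild-type cells and 1.06 (SE 0.213) in CIS-null ones, and the interaction -2.52 (SE 0.297, edgeR adjusted p = 0.0296). Dscam lies at chr16:96587452-97171113.

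Transcription factors and a small GTPase made up the other lower interactions. Zhx2, a zinc finger and homeobox repressor (chr15:57694667-57839832), stood at 35.6 and 36.1 CPM in wild-type and 32.9 and 35.3 CPM in CIS-null libraries ex vivo, and at 28.5 and 29.2 CPM against 12.9 and 10.97 CPM in vitro. Its interaction was -1.20 (SE 0.149, edgeR adjusted p = 0.0323), and CIS-null cells in vitro lay below every other library. Tcf4, an E protein that pairs with other helix-loop-helix factors (chr18:69343429-69687967), stood at 40.9 and 41.2 CPM in wild-type and 43.2 and 51.8 CPM in CIS-null libraries ex vivo, and at 50.3 and 53.5 CPM against 27.9 and 27.2 CPM in vitro. The CIS-null libraries were the higher ones ex vivo and the lower ones in vitro, with an interaction of -1.13 (SE 0.150, edgeR adjusted p = 0.0427). Arl4d, a GTPase of the ARF family (chr11:101665541-101667832), stood at 468 and 454 CPM in wild-type and 513 and 475 CPM in CIS-null libraries ex vivo, and at 26.2 and 24.2 CPM against 12.7 and 9.93 CPM in vitro. Arl4d was thus far lower in culture in both genotypes, by -4.19 in wild-type cells and -5.45 in CIS-null ones, and its interaction of -1.25 (SE 0.173, edgeR adjusted p = 0.0492) was the one closest to the threshold.

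Genes of growth metabolism stood among the higher interactions. Srm, spermidine synthase, which makes the polyamine spermidine (chr4:148591513-148594619), stood at 14.6 and 12.7 CPM in wild-type and 11.1 and 13.1 CPM in CIS-null libraries ex vivo. In vitro it stood at 52.97 and 58.7 CPM in wild-type and 117 and 120.1 CPM in CIS-null libraries. Its interaction was 1.26 (SE 0.164, edgeR adjusted p = 0.0389). Slc19a1, the reduced folate carrier, which brings folate into the cell for one-carbon metabolism (chr10:77032269-77050432), stood at 14.1 CPM in both wild-type libraries and at 14.5 and 14.0 CPM in CIS-null libraries ex vivo. In vitro it stood at 21.3 and 22.8 CPM in wild-type and 44.2 and 48.1 CPM in CIS-null libraries. Its interaction was 1.05 (SE 0.142, edgeR adjusted p = 0.0433).

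Lrrfip2, a leucine-rich repeat protein that binds Flightless, differed in opposite directions in the 2 states. It stood at 64.8 and 64.0 CPM in wild-type and 44.4 and 45.3 CPM in CIS-null libraries ex vivo, and at 23.4 and 20.1 CPM against 32.0 and 33.4 CPM in vitro. The difference was -0.52 ex vivo and 0.59 in vitro, and the interaction 1.11 (SE 0.140, edgeR adjusted p = 0.0345). Lrrfip2 lies at chr9:111117546-111225668, 3.81 Mb from Cish. It was the 1 gene that passed among 163 tested genes within 10 Mb of Cish, against 0.0887% of all tested autosomal genes. A single gene is too few to compare these shares.

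Cd3g, the gamma chain of the CD3 complex of T cells, had the highest interaction of the 4. It stood at 12.5 and 15.6 CPM in wild-type and 11.2 and 7.04 CPM in CIS-null libraries ex vivo, and at 130.3 and 147 CPM against 496 and 449.8 CPM in vitro. Both genotypes were higher in culture, by 3.31 in wild-type cells and 5.70 in CIS-null ones, and the interaction was 2.39 (SE 0.277, edgeR adjusted p = 0.0296). Cd3g lies at chr9:44969572-44980431, 62.3 Mb from Cish.

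Other T cell markers moved with Cd3g. Of 20 tested autosomal genes of the T cell list, 17 had a positive interaction and 12 an unadjusted p under 0.05 as higher and 1 as lower (background 7.35% and 12.8%), with a median of 1.03 against -0.04 for all genes. Only Cd3g passed in edgeR and limma-voom, and DESeq2 called 9. Without CIS-null ex vivo replicate 1 the median was 1.86 and edgeR called 6, without wild-type in vitro replicate 1 it was 1.53 with 5 called, and without wild-type in vitro replicate 2 it was 0.78 with 0 called. No member was called either without wild-type ex vivo replicate 1 or 2 or without CIS-null in vitro replicate 2. Cd3d, another CD3 chain, had an interaction of 3.73 (SE 0.709, edgeR adjusted p = 0.0871), with 10.5 and 15.2 CPM in wild-type and 18.9 and 7.12 CPM in CIS-null libraries ex vivo, and 28.1 and 10.4 CPM against 241 and 272 CPM in vitro. The list summed to 555 and 593 CPM in wild-type and 678 and 511 CPM in CIS-null libraries ex vivo, and to 841 and 722 CPM against 1978 and 1992 CPM in vitro, so wild-type libraries in vitro lay above every ex vivo library and CIS-null libraries in vitro far above these. Cd4 had between 0 and 3 counts in each in vitro library, while Cd8a had 234 and 155 counts in CIS-null cells in vitro. Activated NK cells also express some of these genes, and the part of T cells in the interaction of Cd3g was not tested.

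Markers of B cells and monocytes were far lower in culture in both genotypes. B and plasma cell markers summed to 677 and 520 CPM in wild-type and 1179 and 388 CPM in CIS-null libraries ex vivo, and to between 114 and 168 CPM in vitro. The median interaction of this list was -0.97 over 20 genes and turned to 0.55 without CIS-null ex vivo replicate 1, the library with the highest sum. Monocyte and macrophage markers summed to 293 to 555 CPM ex vivo and 61.6 to 81.9 CPM in vitro, with a median interaction of -0.07 (-0.41 with groups near 0 set to a floor of 3 counts over the group). Basophil and mast cell markers summed to 16.2 and 13.0 CPM against 57.8 and 27.4 CPM ex vivo and to 69.3 and 70.4 CPM against 152 and 171 CPM in vitro, higher in CIS-null cells in both states, with a median of -1.45 over 11 genes. In vitro Mcpt8, Cpa3 and Alox5 made up most of the counts of that list, while the receptor genes Fcer1a and Ms4a2 had 0 counts in each in vitro library. In these 3 lists 10, 10 and 6 members had a group with no counts, and none of the members passed in edgeR or limma-voom. At an unadjusted p under 0.05 there were 0, 0 and 0 higher and 1, 0 and 1 lower. Genes that mark innate lymphoid cells of types 1 and 2, several of which NK cells share, summed to 452 to 606 CPM ex vivo and 1084 to 1364 CPM in vitro. In vitro Cxcr6, Itga1, Tnfsf10 and Cd200r1 made up most of the counts of that list. Il7r fell from 794 to 1361 counts in ex vivo libraries to 14 to 41 in vitro, and Klrg1 and Gata3 were also lower in each in vitro library. The genes of this list had a median interaction of -0.63 over 11 genes (-0.39 without CIS-null ex vivo replicate 2), with 8 negative and 5 at an unadjusted p under 0.05 as lower and none as higher. None of them passed in edgeR or limma-voom, and DESeq2 called Cxcr6 and Tnfsf10 as lower. Cxcr6 nevertheless had more counts in CIS-null libraries in both states. Ex vivo it had 493 and 645 counts against 143 and 178 in wild-type libraries, and in vitro 16329 and 16250 against 7738 and 11866. The part of such cells in the interactions of other genes was not tested.

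**Figure D2:**
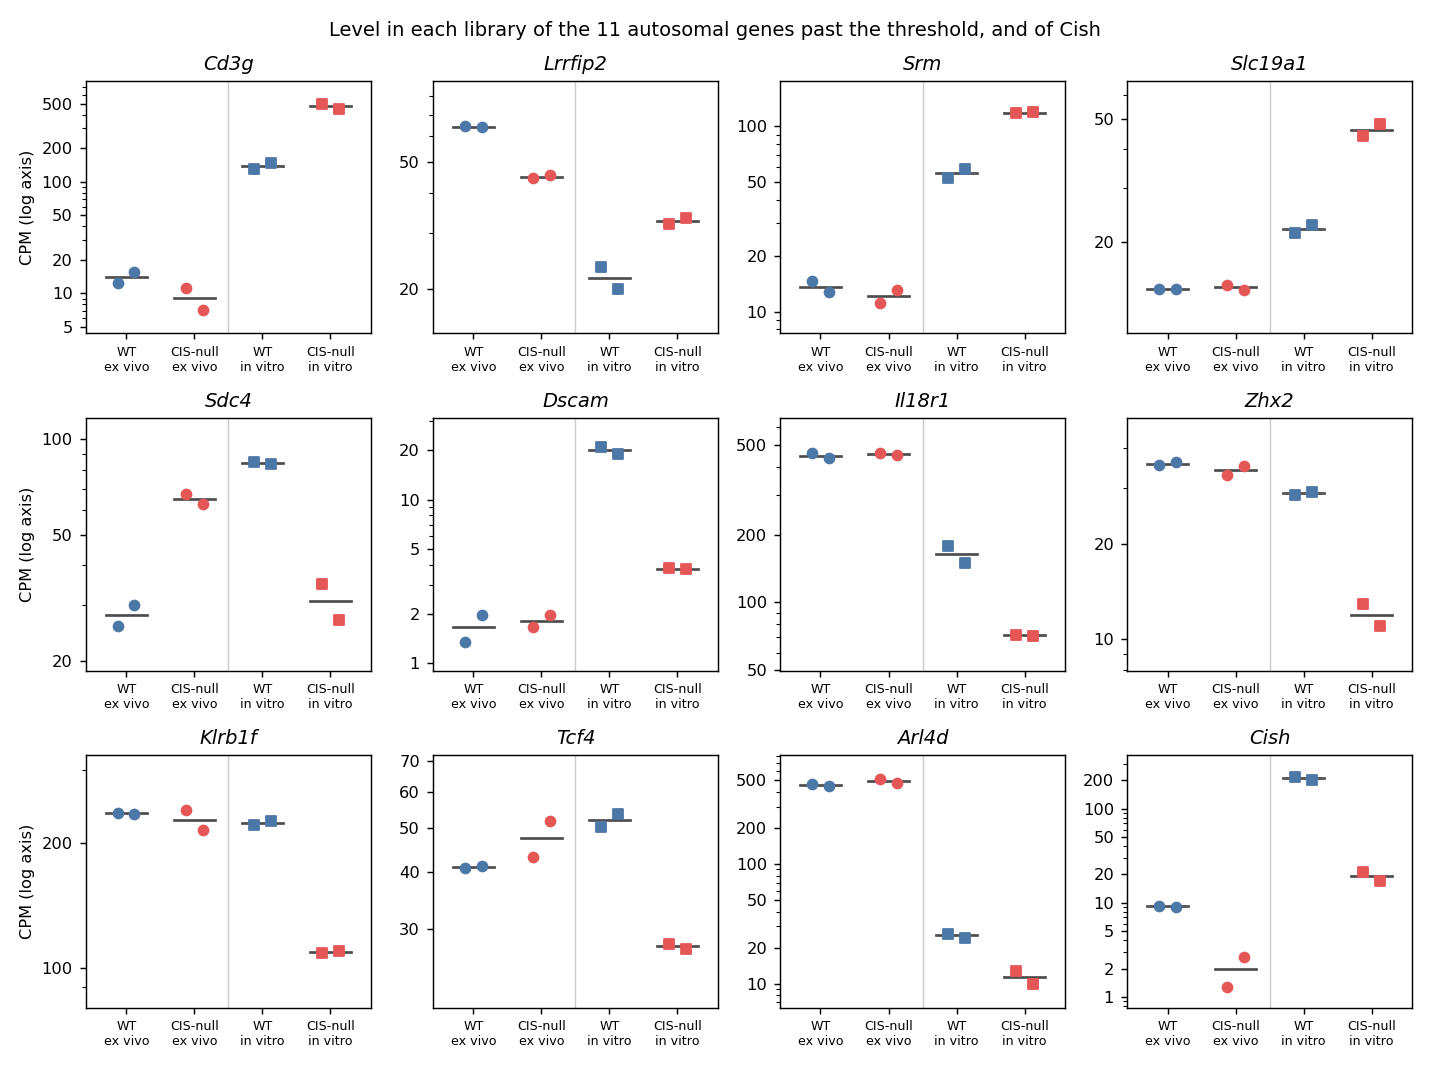
Each panel gives the level of 1 gene in CPM on a log axis, with 2 points for the 2 libraries of each group and a line at their mean; circles are ex vivo and squares in vitro libraries, blue is wild type and red CIS-null. Sdc4, Lrrfip2 and Cd3g change their order of genotypes between the states, as do Tcf4 and Arl4d with a small ex vivo difference. Il18r1, Klrb1f, Slc19a1 and Zhx2 differ between genotypes mainly in vitro, and Cish is low in CIS-null libraries in both states.

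Apart from Sdc4, these calls were close to the threshold. The other 10 genes passed 10 to 14 of the 21 alternatives. When X- and Y-linked genes were left out before adjustment only Sdc4 passed (adjusted p = 0.00514) with edgeR, and the other 10 lay at 0.0665 to 0.0701. Without 1 library the number of autosomal calls was 2 (without wild-type ex vivo replicate 1), 1 (wild-type ex vivo replicate 2), 339 (CIS-null ex vivo replicate 1), 3 (CIS-null ex vivo replicate 2), 35 (wild-type in vitro replicate 1), 4 (wild-type in vitro replicate 2), 363 (CIS-null in vitro replicate 1) and 1 (CIS-null in vitro replicate 2). The 11 genes were all among the calls without CIS-null ex vivo replicate 1 and without CIS-null in vitro replicate 1. By DESeq2 the other 10 had adjusted p between 4.42e-17 and 9.15e-05.

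**Figure D3:**
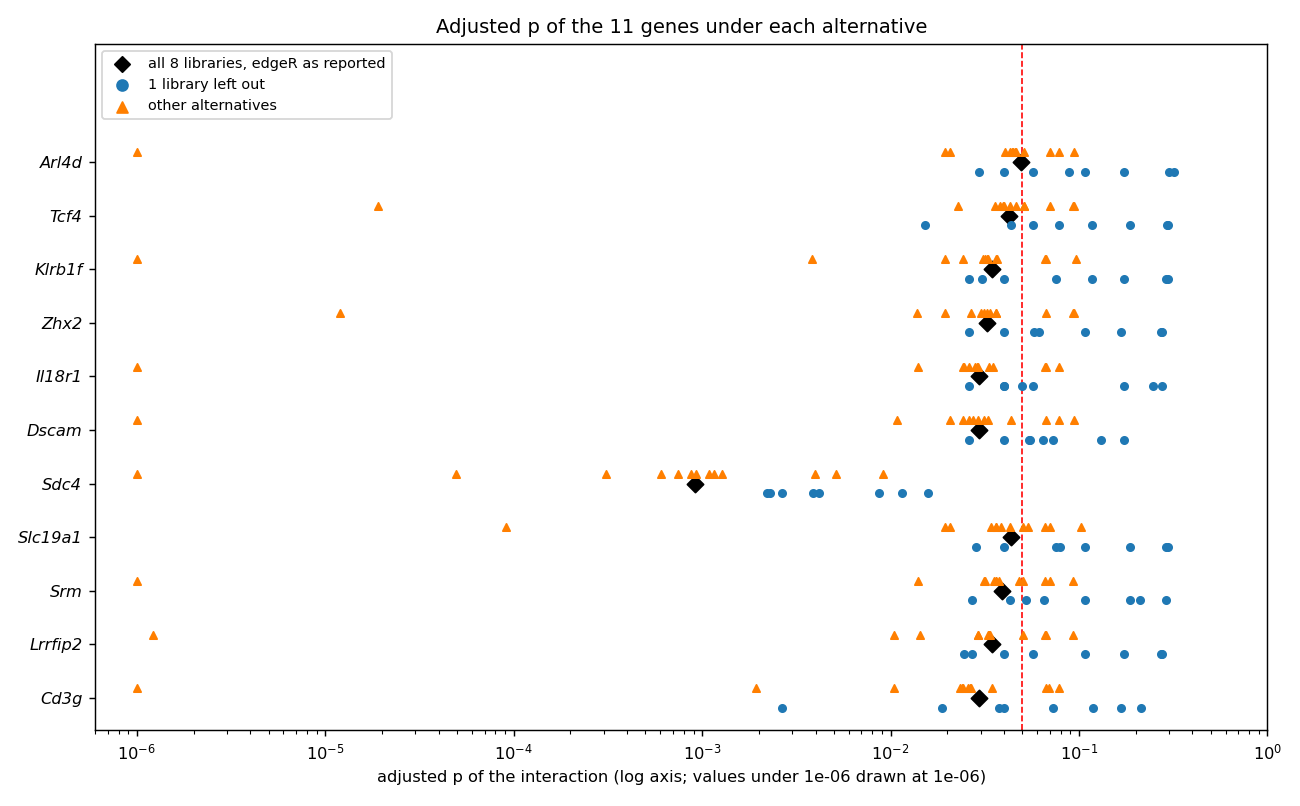
Each row is 1 of the 11 genes and each mark its adjusted p, on a log axis, in the fit as reported (black diamonds), with 1 library left out (blue circles) or in another alternative (orange triangles). All marks of Sdc4 lie left of the dashed line at 0.05, while those of the other 10 genes lie on both sides.

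Cish itself had a negative interaction that did not pass. It stood at 9.26 and 9.12 CPM in wild-type and 1.29 and 2.64 CPM in CIS-null libraries ex vivo, and at 219.8 and 202 CPM against 21.2 and 17.2 CPM in vitro. The log2 difference between genotypes was -2.20 ex vivo and -3.46 in vitro, and the interaction -1.26 (SE 0.322, edgeR adjusted p = 0.117), with DESeq2 at 0.00302. With CIS-null ex vivo replicate 1 left out it lay at -1.66 (edgeR adjusted p = 0.0283) and with CIS-null ex vivo replicate 2 left out at -0.63 (edgeR adjusted p = 0.355), the 2 libraries that differ most from each other in Cish. The other 7 SOCS genes, which encode related inhibitors, had interactions between -0.35 (Socs7) and 0.29 (Socs1), and none passed in edgeR, DESeq2 or limma-voom or had an unadjusted p under 0.05.

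Receptors of IL-12, IL-18, IL-33 and IL-10, listed with IL-27 and interferon receptors, had mostly negative interactions. Of 13 tested genes 11 were negative, with a median of -0.39. At an unadjusted p under 0.05 there were 7 as lower and none as higher (12.8% and 7.35% over all genes). Il18r1 was the 1 that passed in edgeR, DESeq2 and limma-voom. Il18rap, the second chain of the IL-18 receptor, had the same sign as Il18r1, at -0.56 (edgeR adjusted p = 0.150). It stood at 646 and 679 CPM in wild-type and 724 and 572 CPM in CIS-null libraries ex vivo, and at 245 and 227 CPM against 155 and 159 CPM in vitro. It was chosen after its values were seen. The chains of the IL-12 receptor had smaller values, 0.19 for Il12rb1 and -0.26 for Il12rb2.

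The receptors of the gamma chain family with their JAKs and STATs were negative for 15 of 19 genes (median -0.34). Their genes are long, with a median of 4085 bases, and with the length trend removed the median became -0.15, with 13 negative, and Stat2 passed. None passed in edgeR or limma-voom, 8 had an unadjusted p under 0.05 as lower and none as higher, and DESeq2 called Stat2 and Stat4. Stat2, a signal transducer of type I interferon, had an interaction of -0.94 (SE 0.143, edgeR adjusted p = 0.0597), with 47.9 and 50.5 CPM in wild-type and 42.6 and 48.1 CPM in CIS-null libraries ex vivo against 36.9 and 36.1 CPM and 18.3 and 16.7 CPM in vitro. Stat4, which transmits IL-12 signals, had -0.75 (SE 0.191, edgeR adjusted p = 0.117), with in vitro levels of 223 and 171 CPM in wild-type and 133 and 113 CPM in CIS-null libraries. The shared receptor chain Il2rb had 0.16, Jak3 -0.09 and Stat5a -0.30, and none of these had an unadjusted p under 0.05. The list of known STAT5-responsive genes had a median of 0.08 over 16 genes, 10 positive and 6 negative, with 3 at an unadjusted p under 0.05 as higher and 2 as lower. This median ran from -0.07 without CIS-null in vitro replicate 1 to 0.31 without CIS-null ex vivo replicate 2. None of its members passed in edgeR or limma-voom, and DESeq2 called Gzmb, Prf1 and Tnfrsf9 as higher and Cish as lower.

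Genes of cytotoxic granules were split. Of 22 tested members 12 were positive and 10 negative, 7 had an unadjusted p under 0.05 as higher and 2 as lower, and none passed in edgeR or limma-voom, whereas DESeq2 called 6 as higher and 1 as lower. Gzmb, the granzyme that triggers apoptosis of target cells, stood at 875 and 1034 CPM in wild-type and 986 and 1006 CPM in CIS-null libraries ex vivo, and at 11122 and 12008 CPM against 24149 and 24977 CPM in vitro. Its interaction was 1.03 (SE 0.161, edgeR adjusted p = 0.0598). Serpinb9, which protects the killer cell from granzyme B, stood at 706 and 753 CPM in wild-type and 855 and 779 CPM in CIS-null libraries ex vivo, and at 632 and 561 CPM against 1277 and 1351 CPM in vitro, with an interaction of 0.98 (SE 0.148, edgeR adjusted p = 0.0597). The gene lengths of this list are short, with a median of 1352 bases, and its median interaction of 0.39 became 0.16 with the trend with gene length removed and -0.03 by limma on log2 RPKM. It was 0.01 without the 50 most abundant genes. In the length-corrected fit Gzmb (0.90) and Serpinb9 (1.09) passed, whereas by limma on log2 RPKM Gzmb had 0.09 (adjusted p = 0.924) and Serpinb9 an adjusted p of 0.0944.

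Effector cytokines and TNF family costimulators held few genes at a low p. Ifng, interferon gamma, had an interaction of 0.81 (SE 0.249, edgeR adjusted p = 0.151), with 66.2 and 81.7 CPM in wild-type and 147 and 109 CPM in CIS-null libraries in vitro and 48.5 to 61.5 CPM in the 4 ex vivo libraries. Tnfrsf9, the costimulatory receptor 4-1BB, had 0.64 (SE 0.151, edgeR adjusted p = 0.106) and Tnfsf4, the ligand of OX40, -1.31 (SE 0.287, edgeR adjusted p = 0.0965). Tnfsf4 was higher in CIS-null cells in both states, by 1.65 ex vivo and 0.33 in vitro. Its ex vivo levels were low, 0.842 and 0.632 CPM in wild-type and 2.26 and 2.36 CPM in CIS-null libraries. Of 16 tested cytokine and chemokine genes 2 had an unadjusted p under 0.05 as higher and 1 as lower, and of 20 TNF family genes 2 and 2, against 7.35% higher and 12.8% lower over all genes. None of either list passed in edgeR or limma-voom. DESeq2 called Ifng, Flt3l and Tnfrsf9 as higher and Ltb and Tnfsf4 as lower.

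Among the 30 pathway lists, amino acid transporters, ATF4 targets and ribosome biogenesis had the most positive medians. Of 26 tested genes of ribosome biogenesis and Myc response, 20 were positive, 16 had an unadjusted p under 0.05 as higher and 1 as lower, and the median was 0.44. Srm passed in edgeR and limma-voom, and DESeq2 called 10, all higher, among them Odc1, the enzyme before Srm in polyamine synthesis (0.68, SE 0.185, edgeR adjusted p = 0.127), and the nucleolar proteins Nop2 (0.55), Nop16 (0.94), Nop56 (0.60) and Nop58 (0.54). Myc itself had an interaction of -0.02 (SE 0.24). The genes of this list other than Srm were named after their values were seen, as were Slc7a6 and Slc7a1 among amino acid transporters.

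Amino acid transporters had a median of 0.53 over 13 genes, 11 of them positive, and 6 had an unadjusted p under 0.05 as higher and none as lower. Slc7a5, the large neutral amino acid transporter that supplies leucine to mTORC1, stood at 24.8 and 20.8 CPM in wild-type and 19.8 and 16.6 CPM in CIS-null libraries ex vivo, and at 77.96 and 70.9 CPM against 138 and 131 CPM in vitro. CIS-null libraries lay below wild-type libraries ex vivo and above them in vitro, with an interaction of 1.18 (SE 0.175, edgeR adjusted p = 0.0596). Slc1a5, the glutamine transporter, had the same order, with 97.0 and 85.6 CPM against 74.8 and 71.8 CPM ex vivo and 140.0 and 137 CPM against 194 and 197 CPM in vitro (0.81, SE 0.129, edgeR adjusted p = 0.0598). None passed in edgeR or limma-voom. DESeq2 called these 2 and Slc7a6 (0.73) and Slc7a1 (0.62).

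Serine, one-carbon and ATF4 target genes had a median of 0.47 over 19 genes, 15 positive, with 10 at an unadjusted p under 0.05 as higher and none as lower. None passed in edgeR or limma-voom, and DESeq2 called Atf4, Psat1 and Shmt2. Atf4, the transcription factor of the amino acid response, had 0.72 (SE 0.151, edgeR adjusted p = 0.0938), with 66.4 to 71.8 CPM in the 4 ex vivo libraries and 67.4 and 56.9 CPM against 96.6 and 105 CPM in vitro. Psat1, a serine synthesis enzyme, had 0.80 (SE 0.200, edgeR adjusted p = 0.114), with 185 and 166 CPM against 244 and 332 CPM in vitro. Atic, a purine synthesis enzyme that uses a folate cofactor and was among the 5 genes next in order as higher, had 1.00 (SE 0.144, edgeR adjusted p = 0.0556), with 46.8 and 50.2 CPM against 92.2 and 107 CPM in vitro and 57.8 to 62.9 CPM ex vivo.

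The other genes next in order by p as higher were Ifrd2 (0.98, SE 0.138, edgeR adjusted p = 0.0522), Wdr4, a subunit of a tRNA methyltransferase (1.13, SE 0.165, edgeR adjusted p = 0.0560), Slc7a5, and Unc5cl (3.20, SE 0.481, edgeR adjusted p = 0.0597). Unc5cl had 3 and 2 counts in wild-type and 15 and 13 counts in CIS-null cells in vitro, so its value rests on few reads. Ifrd2 stood at 11.9 to 12.4 CPM in the 4 ex vivo libraries and at 25.4 and 27.0 CPM against 50.6 and 54.6 CPM in vitro, the same pattern as Slc19a1.

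Glycolysis and lactate genes were positive in 17 of 19, with a median of 0.34, 6 at an unadjusted p under 0.05 as higher and 1 as lower, and none passed in edgeR or limma-voom. Slc16a1, the lactate transporter MCT1, stood at 30.4 and 29.3 CPM in wild-type and 27.9 and 21.8 CPM in CIS-null libraries ex vivo, and at 71.7 and 83.9 CPM against 143 and 157 CPM in vitro (1.21, SE 0.188, edgeR adjusted p = 0.0597). Ldha, which makes lactate from pyruvate, had 0.71 (SE 0.177, edgeR adjusted p = 0.115). DESeq2 called these 2 with Pkm and Aldoc as higher and Hk1, the first enzyme of the pathway, as lower (-0.66).

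Respiratory chain and ribosomal protein genes were positive almost without exception and by small amounts, 28 of 30 (median 0.22) and 39 of 40 (median 0.25). None passed in edgeR, DESeq2 or limma-voom, and at an unadjusted p under 0.05 there were 0 of the former and 1 of the latter, Rpl27, as higher. Both lists hold short genes, with median lengths of 1037 and 694 bases, and their medians became 0.03 and 0.02 with the length trend removed, where 1 respiratory gene, Ndufa4, passed as lower. The respiratory chain median ran from 0.10 without CIS-null in vitro replicate 2 to 0.35 without CIS-null in vitro replicate 1. The ribosomal protein median ran from -0.01 without CIS-null ex vivo replicate 2 to 0.57 without CIS-null ex vivo replicate 1, and these genes have many near-identical copies, so their values are uncertain.

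Among the 30 pathway lists, chromatin and DNA modifying enzymes had the most negative median, -0.57 over 26 genes, 22 of them negative. At an unadjusted p under 0.05 there were 13 as lower and none as higher, none passed in edgeR or limma-voom, and DESeq2 called 10 as lower. Dnmt1, the maintenance DNA methyltransferase, stood at 197 and 206 CPM in wild-type and 148 and 180.3 CPM in CIS-null libraries ex vivo, and at 158 and 153 CPM against 69.5 and 58.6 CPM in vitro (-0.99, SE 0.172, edgeR adjusted p = 0.0774). Ncor1, a corepressor that recruits histone deacetylases, stood at 221 and 249.8 CPM against 169 and 219 CPM ex vivo and at 151 and 134 CPM against 66.2 and 56.9 CPM in vitro (-0.93, SE 0.206, edgeR adjusted p = 0.0965). Both were lower in CIS-null cells in both states, and more so in vitro. This list holds long genes, with a median length of 7841 bases, and its median became -0.38 with the length trend removed, where Dnmt1 and Kmt2a passed. It was -0.38 without CIS-null ex vivo replicate 2 and -0.91 without CIS-null in vitro replicate 1.

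**Figure D4:**
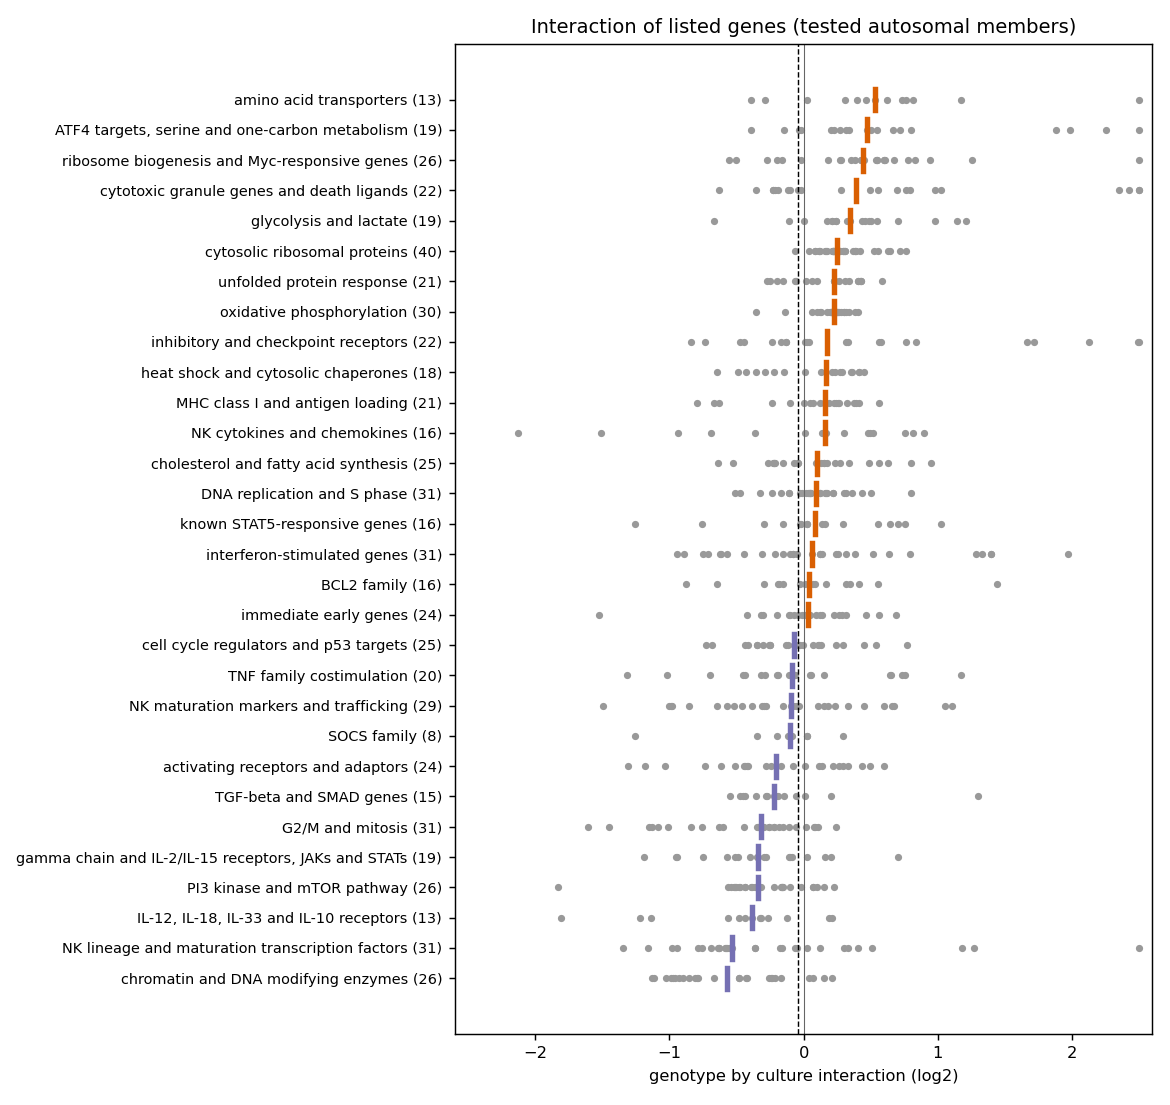
Each grey point is the interaction (log2) of 1 tested autosomal gene of the 30 pathway lists, named with their number of tested genes, and the coloured bar is the list's median, orange above 0 and purple below. The dashed line is the median of all tested autosomal genes, -0.04; the medians run from 0.53 (amino acid transporters) to -0.57 (chromatin and DNA modifying enzymes), and 7 points beyond 2.5 are drawn at the edge.

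Each pathway list with a median between -0.22 and 0.23 moved by over 1.5 times or changed sign with another scaling or 1 library left out, so small medians give no direction.

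NK lineage and maturation transcription factors had a median of -0.53 over 31 genes, with 22 negative and 11 at an unadjusted p under 0.05 as lower and 3 as higher. The median was -0.21 without CIS-null ex vivo replicate 2, -0.23 without wild-type in vitro replicate 1 and -0.27 without CIS-null in vitro replicate 2. None passed in edgeR or limma-voom, and DESeq2 called Klf12, Foxo1 and Zeb2 as lower and Ikzf2 as higher. Klf12 stood at 9.59 and 10.3 CPM in wild-type and 4.51 and 3.28 CPM in CIS-null libraries in vitro, against 37.7 to 48.3 CPM ex vivo (-1.16, SE 0.222, edgeR adjusted p = 0.0871). Foxo1, which holds lymphocytes in a resting state, had -0.64 (SE 0.170, edgeR adjusted p = 0.122). Zeb2, needed for terminal NK maturation, had -0.94, and Tbx21 and Eomes, the T-box factors that define NK identity, had -0.58 and -0.36, with edgeR adjusted p of 0.241 for both.

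Among surface receptors and maturation markers, single genes stood out rather than the lists, whose medians lay between -0.21 and 0.18 (-0.12 and 0.03 with the floor of 3 counts). Syk, the kinase downstream of ITAM adaptors, stood at 351 and 341 CPM in wild-type and 273 and 349 CPM in CIS-null libraries ex vivo, and at 52.4 and 44.1 CPM against 19.2 and 15.7 CPM in vitro (-1.31, SE 0.213, edgeR adjusted p = 0.0620). Kit, the stem cell factor receptor of immature NK cells, stood at 84.8 and 83.1 CPM against 125 and 93.9 CPM ex vivo and at 748 and 955 CPM against 421 and 363 CPM in vitro (-1.50, SE 0.233, edgeR adjusted p = 0.0597). Kit thus had the same turn of order as Sdc4. Ly6c2 stood at 444 and 507 CPM against 814 and 914 CPM ex vivo and at 29.7 and 26.1 CPM against 94.1 and 125 CPM in vitro, higher in CIS-null cells in both states (1.11, SE 0.212, edgeR adjusted p = 0.0871). Tigit, an inhibitory receptor, had 0.76 (SE 0.215, edgeR adjusted p = 0.133). Klra1, a Ly49 receptor with close copies and therefore uncertain, had 1.66 (SE 0.376, edgeR adjusted p = 0.101). None of the 75 genes of these 3 lists passed in edgeR or limma-voom, and at an unadjusted p under 0.05 there were 3 higher and 6 lower activating, 5 and 2 inhibitory and 1 and 5 maturation genes (7.35% higher and 12.8% lower over all genes). DESeq2 called Lat, Klra1, Klrc1, Tigit and Ly6c2 as higher and Syk, Klra3, Cxcr6, Itga2 and Kit as lower.

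PI3 kinase and mTOR pathway genes were negative for 21 of 26 (median -0.34), with 7 at an unadjusted p under 0.05 as lower and none as higher, and none passed in edgeR, DESeq2 or limma-voom. Pik3cg, a catalytic subunit of leukocytes, had -0.54 (SE 0.164, edgeR adjusted p = 0.147). The median became -0.12 with the length trend removed. Genes of G2/M and mitosis were negative for 26 of 31 (median -0.32), but this rested on the CIS-null ex vivo libraries: the median was -0.68 without replicate 1 and 0.13 without replicate 2. Ttk, a kinase of the spindle checkpoint, had -1.45 (SE 0.394, edgeR adjusted p = 0.126) and stood at 1.57 and 3.07 CPM in those libraries. None of the G2/M genes passed in edgeR or limma-voom, 5 of 31 had an unadjusted p under 0.05 as lower, near the 12.8% of all genes, and none as higher, and DESeq2 called 3. Without CIS-null ex vivo replicate 1 edgeR called 11. S phase genes had a median of 0.09 over 31 genes, with 1 at an unadjusted p under 0.05.

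Interferon-stimulated genes went in both directions, with 6 of 31 at an unadjusted p under 0.05 as higher and 8 as lower and a median of 0.06. Irf1, a transcription factor of interferon responses, had -0.62 (SE 0.126, edgeR adjusted p = 0.0929) and was higher in CIS-null cells ex vivo (365 and 337 CPM against 304 and 309 CPM) and lower in vitro (144 and 134 CPM against 183 and 189 CPM). None passed in edgeR or limma-voom, and DESeq2 called Usp18 as higher and Stat2, Irf1, Gbp2 and Gbp5 as lower. The lists of immediate early genes (median 0.04, 24 genes), BCL2 family (0.04, 16 genes), cholesterol and fatty acid synthesis (0.10, 25 genes) and cell cycle regulators and p53 targets (-0.07, 25 genes) had medians near 0, and no member passed in edgeR or limma-voom. That of the immediate early genes ran from -0.19 without CIS-null in vitro replicate 1 to 0.37 without CIS-null ex vivo replicate 2. At an unadjusted p under 0.05 these 4 lists had 0, 3, 3 and 1 higher and 0, 2, 2 and 3 lower genes, and DESeq2 called Fdps, a cholesterol synthesis enzyme, as higher (0.95) and Rbl2, a relative of the retinoblastoma protein, as lower (-0.73).

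Protein folding and antigen presentation genes were mostly positive by small amounts. The unfolded protein response had a median of 0.23 over 21 genes, 15 positive, with 6 at an unadjusted p under 0.05 as higher and none as lower, and its transcription factor Xbp1 had 0.43. Heat shock genes and chaperones had a median of 0.17 over 18 genes, and MHC class I genes with their peptide loading 0.16 over 21 genes. At an unadjusted p under 0.05 these had 3 and 4 higher and 0 and 1 lower genes. TGF-beta and SMAD genes, which restrain NK cells, were negative for 12 of 15, with a median of -0.22 and 1 higher and 4 lower genes at an unadjusted p under 0.05. These are long genes (median 5332 bases), and the median became -0.09, with 9 negative, once the length trend was removed. It was -0.11 without wild-type in vitro replicate 2 and -0.10 without CIS-null in vitro replicate 2. None of these 4 lists had a member that passed in edgeR or limma-voom. DESeq2 called 3 genes, all higher: Cct3, a chaperonin subunit, the MHC class I gene H2-Q7 (0.56) and the proteasome subunit Psmb8 (0.42). H2-Q7 has close copies, so its value is uncertain.

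The interaction fell with gene length across autosomal genes (Spearman correlation -0.372 over 12400 genes, which are not independent replicates). In 10 bins of 1240 genes the median ran from 0.24 in the shortest genes (median length 679 bases) to -0.39 in the longest (7455 bases). The genotype difference fell with length in both states, further in vitro, from 0.36 to -0.52, than ex vivo, from 0.13 to -0.14. In the shortest bin 141 genes had an unadjusted p under 0.05 as higher and 10 as lower, and in the longest 32 and 415. Replicates of 1 group also differed with length: the correlation of their log ratio with length was 0.370 in CIS-null cells ex vivo and -0.451 in CIS-null cells in vitro, against 0.110 and -0.02 in wild-type cells. With each library's length trend removed, 126 genes passed, 59 higher and 67 lower, and the 11 genes were among them. Of the lower genes that passed, Dscam (7481 bases) and Tcf4 (7681 bases) are long, and their interactions became -2.19 and -0.80. Arl4d (1382 bases) and Klrb1f (1708 bases) are short, and theirs became -1.38 and -1.07.

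**Figure D5:**
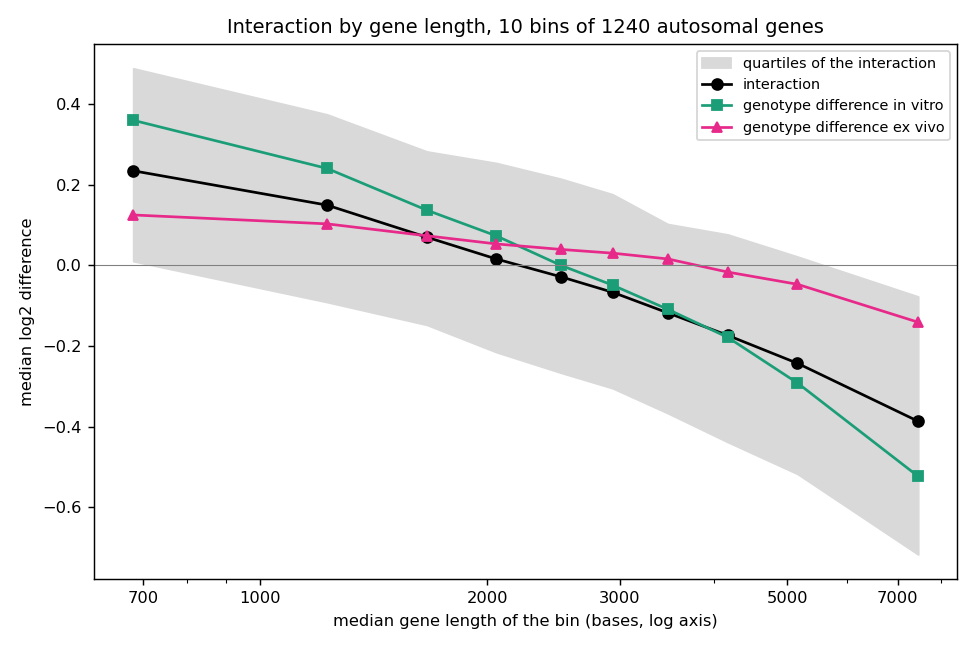
Points are medians of the log2 difference in 10 bins of 1240 autosomal genes, placed on a log axis at the bin's median gene length in bases: the interaction (black, with the quartiles shaded), the genotype difference in vitro (green) and ex vivo (pink). All 3 fall from left to right, the in vitro difference most, from 0.36 to -0.52.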

How the data were processed

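Whole-gene read counts of 8 libraries were deposited by the authors as a matrix of raw, unnormalised counts. Per the submitters' processing notes the tools were Subread, featureCounts and limma and the builds mm10 and GRCm38. Versions, strand setting and the treatment of reads that map to several places are not given in the sources used here. The deposited per-library tables of log2 RPKM, made by the authors, served for 1 alternative only.

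Entrez identifiers were matched to RefSeq (GRCm38.p6) for 25275 genes (93%). Genes passed edgeR's filterByExpr (minimum count 10, minimum total 15), libraries were scaled by TMM, and the interaction was tested in 1 fit of the 4 groups with edgeR 4.0.16 in R 4.3.3 (quasi-likelihood F test, 4 residual degrees of freedom), Benjamini-Hochberg adjusted over all 13184 tested genes. DESeq2 1.42.0, limma 3.58.1 (voom, and on log2 RPKM), other scalings and filters, removal of gene groups or of the length trend, a replicate block and each library left out were alternatives. The fit was also run on simulated counts with a known interaction, and the outcome is not reported here. Libraries held 21485710 to 28065268 counts, and precision was estimated from 2 libraries per group.

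Genes were named by rule: Cish, up to 12 passing genes in each direction with a mean of at least 5 CPM in 1 group and the same sign in all 16 combinations, those next by p up to 5 where fewer passed, and up to 4 passing members of each list, or 2 by lowest p where none passed. Other list members and marker genes were chosen after their values were seen. The members, lists and rule were chosen with earlier results of these data known. The labels do not say whether replicate numbers pair the samples. Correlations of same-numbered deviations ran from -0.232 to 0.146, which with 2 libraries per group cannot exclude pairing.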

Additional observations from a re-analysis of the deposited data

Results flagged for a closer look

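The genotype difference in vitro departed from that ex vivo, by the interaction test of edgeR (Benjamini-Hochberg adjusted p under 0.05, n = 2 per group), for 18 genes of every chromosome. On the autosomes these were Sdc4 (-2.67 on the log2 scale), Dscam (-2.52), Arl4d (-1.25), Il18r1 (-1.22), Zhx2 (-1.20), Tcf4 (-1.13), Klrb1f (-0.99), Cd3g (2.39), Srm (1.26), Lrrfip2 (1.11) and Slc19a1 (1.05). On the X chromosome they were Xist (21.35), Gm2223 (1.11) and Eif2s3x (1.03). On the Y chromosome they were Eif2s3y (-13.83), Kdm5d (-12.06), Ddx3y (-12.99) and Uty (-14.71). The values of Xist and the Y-linked genes are fitted against groups at or near 0 counts, depend on the prior count and are no measure of size.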

How the results depend on the processing

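Against 11 autosomal calls (4 higher, 7 lower), library totals gave 11 (1 higher, 10 lower), RLE factors 9 (4, 5), no low-count filter 67 (33, 34), a floor of 5 CPM in 2 libraries 16 (7, 9), DESeq2 573 (215, 358), limma-voom 10 (3, 7), limma on log2 RPKM 1 (0, 1), no X and Y genes 1 (0, 1), no 50 most abundant genes 14 (8, 6), no mitochondrial, haemoglobin, immunoglobulin or T cell receptor genes 19 (8, 11) and the length trend removed 126 (59, 67). The cause was not tested. With the replicate number as a block 1 gene passed (0 higher, 1 lower), and whether the numbers pair the samples is not known. With 1 library left out, calls ran from 1 to 363, higher calls from 0 to 91 and lower calls from 1 to 292. A group reduced to 1 library is then assumed to vary like the others. No gene chosen by the naming rule changed sign in any alternative that gave it a value, which the choice by sign or low p in the same libraries largely set in advance. The design has 4 residual degrees of freedom, and sex-linked expression cannot be told apart from the interaction.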
